A study of Homo sapiens with 9 samples.

Results

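The SLC2A genes encode the GLUT proteins, the family of membrane carriers that let glucose and related sugars cross membranes down their gradient. The 10 members described here are SLC2A1, SLC2A2, SLC2A3, SLC2A6, SLC2A8, SLC2A9, SLC2A10, SLC2A12, SLC2A13 and SLC2A14, chosen by gene symbol, and they are 10 of the 38021 genes in the deposited table of counts. Each was found in exactly 1 row, had reads in all 9 libraries and was tested in every comparison. RNA came from 786-O, an established line of clear cell renal cell carcinoma without functional VHL, in which HIF2α (EPAS1) is stable at normal oxygen. The cells had been infected with a lentiviral pLKO.1 construct that expressed a control hairpin (shControl), a hairpin against ARNT (shARNT) or a hairpin against BMAL1 (shBMAL1), with 3 libraries per group. All groups, the control included, were infected, selected and kept in puromycin, and grown in Dulbecco's medium with serum. Comparing them asks which transcripts depend on ARNT, the classical partner of HIF proteins, and which on BMAL1, the clock protein studied here as another partner of HIF2α. One hairpin per gene was sequenced, so an effect of the target and an off-target effect of its hairpin cannot be told apart here.

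SLC2A1 (GLUT1) is the carrier for basal glucose uptake in many cells and a textbook target of hypoxia-inducible factors, which is why it is prominent in clear cell renal carcinoma. SLC2A3 (GLUT3) has a high affinity for glucose and is best known from neurons, and SLC2A14 is its duplicate. SLC2A2 (GLUT2) has a low affinity and a high capacity, and it is typical of hepatocytes, pancreatic beta cells, intestine and the proximal tubule of the kidney.

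Library totals ran from 33793045 to 35444735 reads, and members took 0.231% to 0.253% of the reads in shControl, 0.120% to 0.131% in shARNT and 0.155% to 0.174% in shBMAL1. Values below are normalised read counts, or normalised reads for short (reads divided by the size factor of the library) unless a length scale is named. ARNT had 2187, 2551 and 2318 normalised read counts in the shControl libraries, 1239, 1238 and 1199 in shARNT, and 2072, 1928 and 2043 in shBMAL1. BMAL1 (ARNTL in the table) had 752, 797 and 735 in shControl, 676, 656 and 568 in shARNT, and 346, 292 and 340 in shBMAL1. Each target was lowest in the libraries of its own hairpin. Beside the labelled tissue 10 renal carcinoma markers were read, and all had reads in all 9 libraries. Having reads does not identify a tissue by itself, since 20085 to 20788 genes had reads in each library. Of these markers 6 were lower and 1 higher under shARNT, 5 lower and 2 higher under shBMAL1, and 3 lower and 4 higher between the knockdowns (DESeq2 adjusted p below 0.1), where 35.4%, 36.8% and 35.3% of all genes tested were called. Of 10 proximal tubule markers, 6 had reads in all libraries, while SLC22A6, SLC22A8 and SLC22A12 had none in any library. Reads of the 15 mitochondrial genes were 5.46% to 7.14% of the total in shControl, 7.59% to 8.74% in shARNT and 8.71% to 9.66% in shBMAL1, and the part of this shift in the results below was not tested.

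SLC2A3 and SLC2A14 lie next to each other on the minus strand of chromosome 12, and their coding sequences differ at 48 of 1488 aligned bases, an identity of 96.8%. Of the 1381 windows of 100 bases in that alignment, 82 (5.94%) held no mismatch, the median window held 3 and the highest number in a window was 8. Reads that fall in the identical stretches can be given to either gene. The following stretch is shown because it is the same in both genes, in SLC2A3 at chr12:8082368-8082467 (exon 11 of the transcript used, minus strand, GRCh37) and in SLC2A14 at chr12:7980179-7980278 (exon 6, minus strand).
SLC2A3 and SLC2A14: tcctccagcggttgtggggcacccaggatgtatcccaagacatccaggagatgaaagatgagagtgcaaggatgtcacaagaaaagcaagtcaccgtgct
The next pair is shown because it is the window that tells the genes apart best, with the mismatched bases in capitals, in SLC2A3 at chr12:8083138-8083237 (exon 10) and in SLC2A14 at chr12:7981362-7981461 (exon 5).
SLC2A3: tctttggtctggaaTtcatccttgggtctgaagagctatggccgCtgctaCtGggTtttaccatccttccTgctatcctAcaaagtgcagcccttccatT
SLC2A14: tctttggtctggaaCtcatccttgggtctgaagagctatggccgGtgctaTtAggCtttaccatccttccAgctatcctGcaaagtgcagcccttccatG
Over whole transcripts, 269 windows of 100 bases of SLC2A3 (6.53%) were also found in SLC2A14. No window of the reference transcripts of the other 8 members was found in another gene.

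ARNT and BMAL1 are basic helix-loop-helix proteins, and the textbook core letters of their DNA sites were searched in the RefSeq promoter windows (250 bases before to 50 after the start, GRCh38.p14, both strands). The letters ACGTG or GCGTG, the core of the hypoxia response element, occurred in 48.4% of 35116 promoters of all genes, and the E-box CACGTG, which contains ACGTG, in 7.26%. A window was given for 9 of the 10 members, and SLC2A3 had none in the table. SLC2A6 and SLC2A13 held 3 core matches each, SLC2A1, SLC2A10 and SLC2A14 held 1 each, and SLC2A9 held 1 in only 1 of its windows. In SLC2A13 the matches at −25 and −24 are the same place, an E-box read on both strands, so its matches are fewer sites. SLC2A2, SLC2A8 and SLC2A12 held none, and the E-box occurred only in SLC2A13. The 250 bases before the start are shown for SLC2A2, SLC2A6 and SLC2A14, whose transcripts below rose, moved both ways and fell, with each match or its reverse complement in capitals. They are chr3:171026721-171026970 for SLC2A2, chr9:133479100-133479349 for SLC2A6 and chr12:7872916-7873165 for SLC2A14, all on the minus strand of GRCh38.p14.
SLC2A2: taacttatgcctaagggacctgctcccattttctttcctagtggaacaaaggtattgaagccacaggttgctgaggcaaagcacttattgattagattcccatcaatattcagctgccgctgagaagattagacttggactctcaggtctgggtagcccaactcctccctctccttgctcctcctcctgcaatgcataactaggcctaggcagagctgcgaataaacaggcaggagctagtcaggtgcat
SLC2A6: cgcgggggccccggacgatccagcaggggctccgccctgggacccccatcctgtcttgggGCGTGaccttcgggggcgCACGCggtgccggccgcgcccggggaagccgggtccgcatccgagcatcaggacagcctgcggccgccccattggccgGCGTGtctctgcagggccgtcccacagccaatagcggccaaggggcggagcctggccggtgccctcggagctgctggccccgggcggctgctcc
SLC2A14: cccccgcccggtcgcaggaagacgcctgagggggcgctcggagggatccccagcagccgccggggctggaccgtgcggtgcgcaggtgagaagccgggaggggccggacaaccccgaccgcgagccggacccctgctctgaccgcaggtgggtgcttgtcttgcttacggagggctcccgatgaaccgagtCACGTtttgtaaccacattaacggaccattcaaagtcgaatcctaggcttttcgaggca
A match is a description of letters, and neither factor's binding was measured in these libraries.

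SLC2A1 and SLC2A3, carriers for glucose uptake at the cell surface, were lower with either hairpin than in shControl, and SLC2A2 rose from a trace. SLC2A1 was lower by more under shARNT and SLC2A3 by more under shBMAL1. SLC2A6 was called in opposite directions in the knockdowns. SLC2A12 rose under shBMAL1, and its small fall under shARNT (DESeq2 adjusted p 0.0588) was lost in 5 of 6 fits that left out 1 library (DESeq2 adjusted p 0.105 to 0.328). Under shARNT, 4 of the 10 members were called lower, 2 higher and 4 were not called, and 35.4% of the 15164 genes tested were called (19% lower, 16.5% higher; DESeq2 adjusted p under 0.1). Under shBMAL1, 6 were called lower, 2 higher and 2 were not called, and 36.8% of 19036 genes were called (19.4% lower, 17.4% higher). Between the knockdowns (shBMAL1 against shARNT), 3 were lower, 3 higher and 4 not called, and 35.3% of 18181 genes were called (18% lower, 17.3% higher). The median log2 fold change of the members was −0.29, −0.40 and −0.11 in these comparisons, beside 0.0028, 0.015 and 0.0094 over all genes tested. The control libraries are shared by the first pair of comparisons, so values are set side by side and no overlap is drawn from them.

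**Figure D1:**
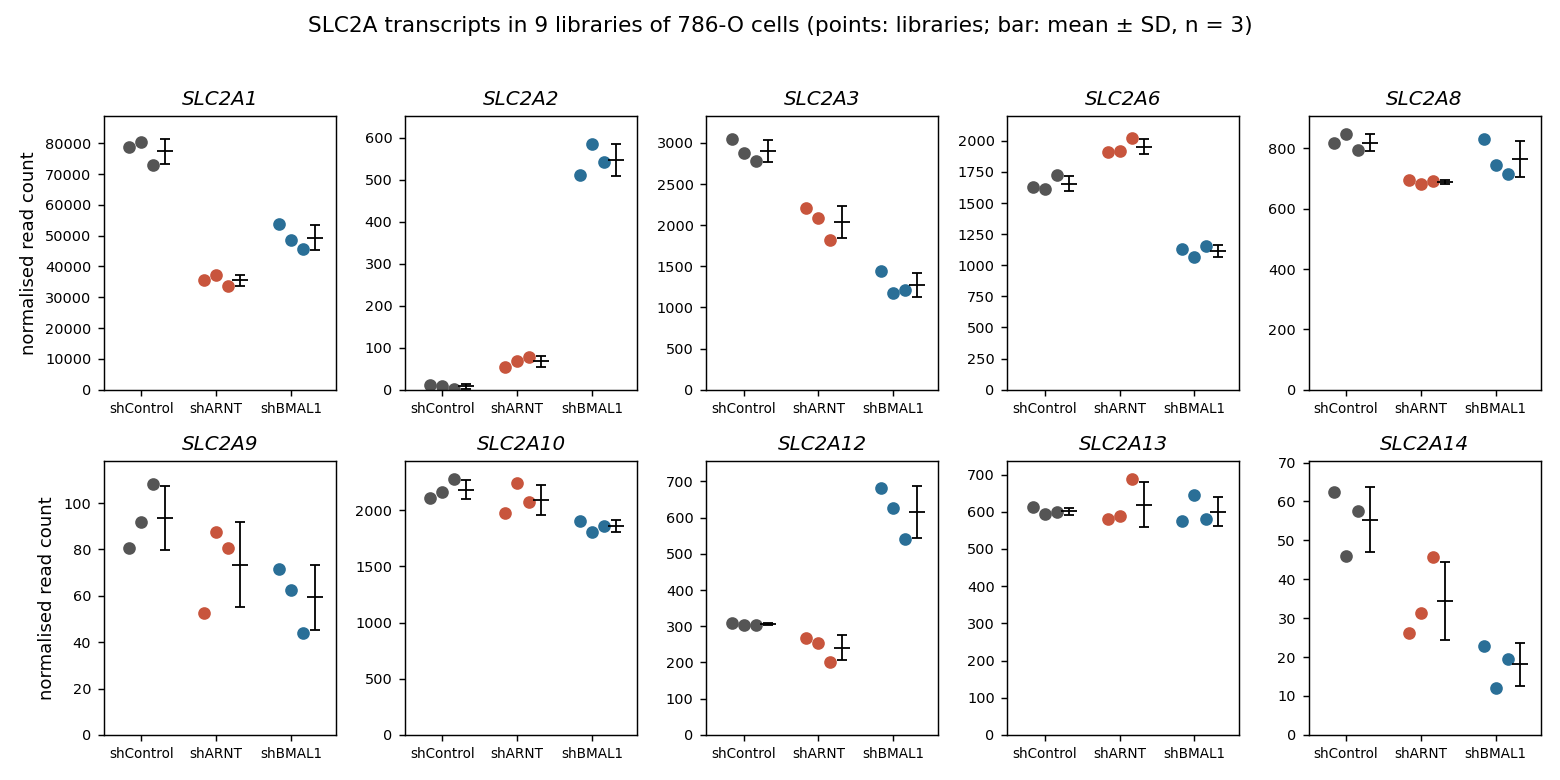
Normalised read counts (vertical axis, linear from 0, each panel with its own scale) of the 10 SLC2A members in the 3 libraries of each group, with points for libraries and a bar for the mean and SD (n = 3). SLC2A1 and SLC2A3 lie below shControl in both knockdowns, SLC2A2 rises from 2.02 to 12.1 in shControl to between 510 and 586 in shBMAL1, and SLC2A13 overlaps in all groups.

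**Figure D2:**
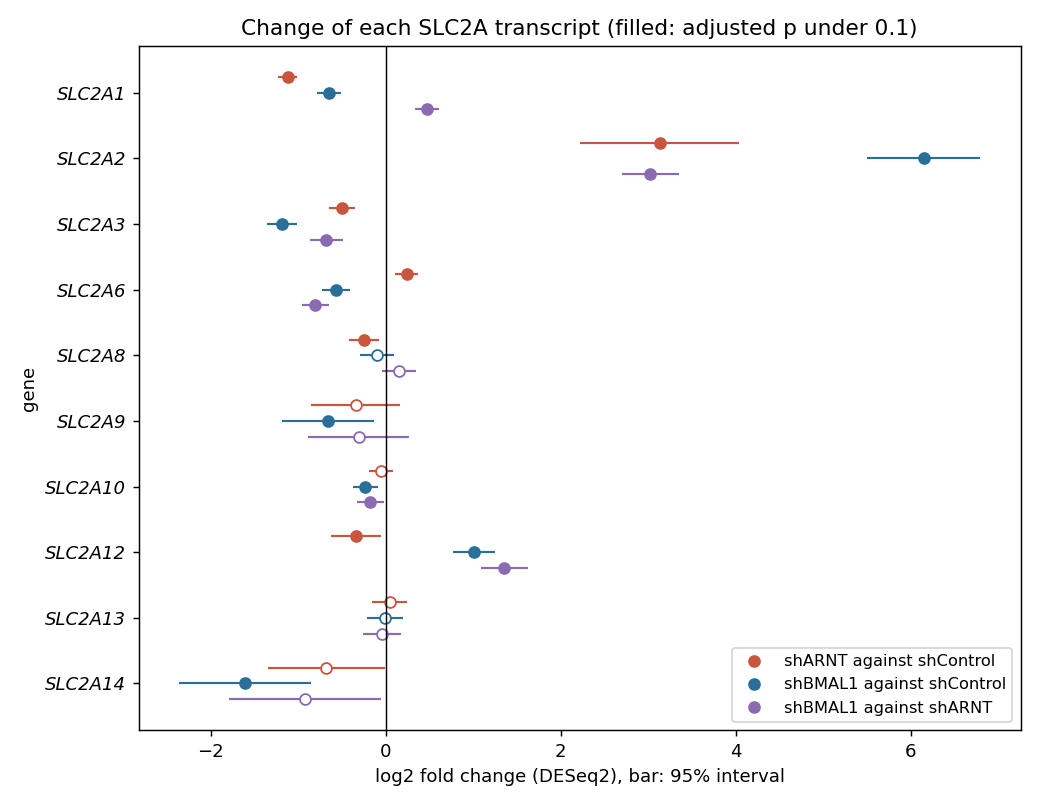
Log2 fold change (horizontal axis) of each member in the 3 comparisons, with its 95% interval as a bar, filled where the DESeq2 adjusted p was under 0.1. SLC2A2 stands furthest right at 6.15 under shBMAL1. SLC2A1, SLC2A6, SLC2A8, SLC2A12 and SLC2A13 have points on both sides of 0, and all 3 intervals of SLC2A13 include 0.

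SLC2A1 (chromosome 1, 43391024 to 43424564, minus strand, GRCh37, protein-coding) had 78786, 80483 and 72829 normalised read counts in shControl, 35491, 37326 and 33660 in shARNT, and 53659, 48731 and 45634 in shBMAL1. Every shARNT library was below every shBMAL1 library, and these were below every control. In a cell line fewer expressing cells and less RNA per cell cannot be told apart from such bulk values. It fell by 1.12 on the log2 scale (SE 0.05, DESeq2 adjusted p 1.54e-91) in shARNT, from 77366 ± 4020 to 35493 ± 1833 (SD, n = 3). The change was −0.65 (SE 0.07, DESeq2 adjusted p 2.66e-18) under shBMAL1, with 49341 ± 4047. The difference between the knockdowns was itself called, with SLC2A1 1.39-fold higher in shBMAL1 than in shARNT (log2 0.47, SE 0.07, DESeq2 adjusted p 4.52e-10). SLC2A1-AS1, a transcript named as antisense to SLC2A1, had 185 ± 10.8 in shControl, 136 ± 1.96 in shARNT and 185 ± 8.13 with shBMAL1.

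SLC2A3 (chromosome 12, 8071826 to 8171603, minus strand, protein-coding) had 3042, 2872 and 2783 normalised read counts in shControl, 2204, 2092 and 1824 in shARNT, and 1438, 1177 and 1208 in shBMAL1. The groups did not overlap, and their order differed from that of SLC2A1, since shBMAL1 was the lowest. On the log2 scale its changes were −0.50 (SE 0.07, DESeq2 adjusted p 3.29e-10) in shARNT and −1.19 (SE 0.09, DESeq2 adjusted p 1.63e-39) under shBMAL1. Between the knockdowns it was −0.68 (SE 0.10, DESeq2 adjusted p 7.03e-11), which is opposite in sign to SLC2A1 in the same comparison.

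SLC2A14, the duplicate of SLC2A3 (chromosome 12, 7965108 to 8043744, minus strand, protein-coding), was a weak gene here, with 62.4, 46.0 and 57.6 normalised read counts in shControl, 26.3, 31.4 and 45.7 in shARNT, and 22.8, 12.1 and 19.6 in shBMAL1. Both knockdowns lay below the control libraries, shARNT by a narrow margin. It was called lower under shBMAL1 (log2 −1.61, SE 0.39, DESeq2 adjusted p 0.000222). Under shARNT the value was −0.68 with a 95% interval of −1.35 to −0.01 and was not called (DESeq2 adjusted p 0.122), while without shARNT replicate 3 it was −0.93 and called (DESeq2 adjusted p 0.0801). The value between the knockdowns was −0.92 (DESeq2 adjusted p 0.106, not called). With edgeR's quasi-likelihood test the adjusted p was 0.0536 under shARNT and 0.0408 between the knockdowns, so both would be called.

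Because reads of this pair can be exchanged, the split between the genes was examined. SLC2A14 held 1.87% ± 0.256 of the reads of both genes in shControl, 1.70% ± 0.661 in shARNT and 1.39% ± 0.325 with shBMAL1 (SD, n = 3). The groups overlapped in each comparison, with exact two-sided permutation p values of 0.8 for shARNT against shControl, 0.2 for shBMAL1 against shControl and 0.6 between the knockdowns, where 0.1 is the smallest that 3 against 3 libraries allow. The share of SLC2A14 ranged from 1.02% (12 of 1180 reads, exact 95% binomial interval 0.527% to 1.77%) in shBMAL1 replicate 2 to 2.45% (46 of 1881 reads, 1.80% to 3.25%) in shARNT replicate 3. These intervals cover counting error only. With the reads of both genes added, the log2 fold changes were −0.51, −1.19 and −0.68 in the same order (DESeq2 adjusted p 9.12e-11, 1.04e-39 and 3.16e-11), close to those of SLC2A3 alone. If each read was counted once, for 1 gene of the pair, the summed values do not depend on how reads were split. Values of SLC2A14 by itself do. How reads that fit both genes were counted is not given in the sources used here.

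**Figure D3:**
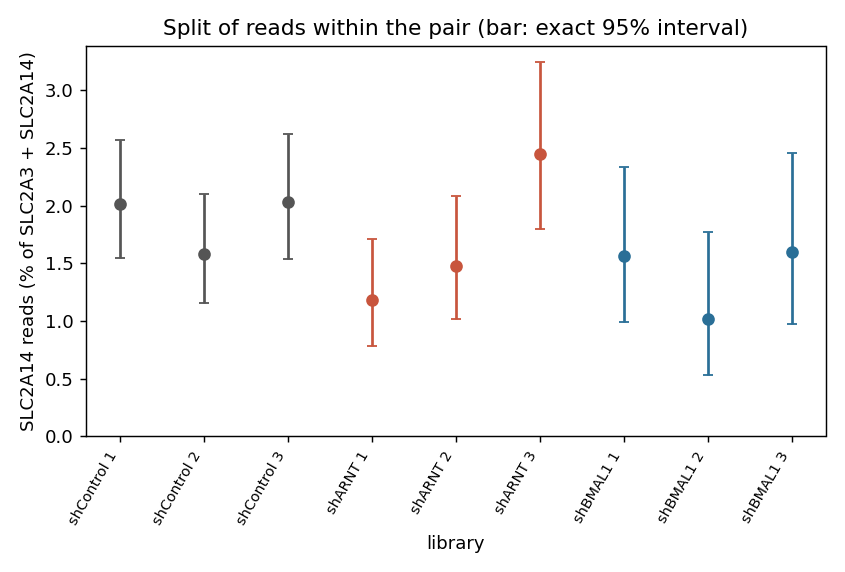
SLC2A14 reads as a percentage of the reads of SLC2A3 and SLC2A14 together (vertical axis) in each of the 9 libraries, with exact 95% binomial intervals as bars. The libraries of the groups mix, and the interval of shARNT replicate 3 (1.80% to 3.25%) lies above those of shARNT replicate 1 and shBMAL1 replicate 2, which end at 1.71% and 1.77%.

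SLC2A2 (chromosome 3, 170714136 to 170744532, minus strand, protein-coding) had 12.1, 8.997 and 2.02 normalised read counts in shControl, 54.6, 68.7 and 78.5 in shARNT, and 510, 586 and 543 in shBMAL1. The groups were far apart, with the highest control library below the lowest shARNT library and the highest shARNT library below the lowest shBMAL1 library. SLC2A2 was 8.75-fold higher under shARNT (log2 3.13, SE 0.46, DESeq2 adjusted p 3.26e-10) and 70.8-fold higher under shBMAL1 (log2 6.15, SE 0.33, DESeq2 adjusted p 2.10e-74). Between the knockdowns it was 8.12-fold higher in shBMAL1 (log2 3.02, SE 0.17, DESeq2 adjusted p 6.69e-72). The folds against shControl rest on 12, 9 and 2 reads in the control libraries, and leaving out 1 library at a time moved the log2 fold change between 2.68 and 3.61 under shARNT and between 5.69 and 6.62 under shBMAL1. The value between the knockdowns does not use those libraries and stayed between 2.89 and 3.14. An antisense transcript that is annotated across the whole gene is no row of the count table, and whether the counting used strand is not given in the sources used here.

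SLC2A2 is usually a gene of liver, islet and proximal tubule, so markers of these cells were read beside it. Of 8 pancreatic beta cell markers, 7, INS and PDX1 among them, had no read in any library, and the only one with enough reads for a test (under shBMAL1 and between the knockdowns) was not called. Of 10 hepatocyte markers, 3 had reads in all libraries, APOA2 and HP had none in any, and ALB stayed between 0 and 6.0 normalised read counts. The summed hepatocyte list was 5474 to 5724 in shControl, 2415 to 2634 in shARNT and 10253 to 12610 in shBMAL1. SERPINA1 made up nearly all of it, at 5560 ± 120 in shControl, 2489 ± 107 in shARNT and 11192 ± 1176 with shBMAL1, and with TF (transferrin) and FGB it was called higher under shBMAL1. FGB, the fibrinogen beta chain, had 2.01, 3.00 and 0 normalised read counts in shControl, 1.95, 1.96 and 5.96 in shARNT, and 43.7, 44.3 and 48.0 in shBMAL1. It too rose from a trace under shBMAL1 (log2 4.76, SE 0.76, DESeq2 adjusted p 6.62e-09), was higher there than in shARNT (log2 3.79, SE 0.61, DESeq2 adjusted p 7.30e-09), and had too few reads for a test under shARNT. In the hepatocyte list, 1 gene was lower and 1 higher of 2 tested under shARNT, 3 of 5 were higher under shBMAL1 and 3 of 4 were higher between the knockdowns, with none lower in the last 2 comparisons, beside 35.4%, 36.8% and 35.3% of all genes called. The gene called higher under shARNT was TF (DESeq2 adjusted p 0.0276), and this call was lost without shARNT replicate 1 or 2 (0.144 and 0.111) or shControl replicate 2 or 3 (0.1004 and 0.108). The summed proximal tubule list was 12919 to 14137 in shControl, 13097 to 14618 in shARNT and 16811 to 18861 in shBMAL1, with 1 of 4, 2 of 6 and 2 of 6 genes tested called higher in the 3 comparisons and none lower, against the same 35.4%, 36.8% and 35.3% over all genes. In each of the last comparisons 1 of those genes was CUBN (DESeq2 adjusted p 0.0951 under shBMAL1 and 0.0809 between the knockdowns). Its call under shBMAL1 was lost without shBMAL1 replicate 1 or 3 (0.148 and 0.434) or shControl replicate 1 or 3 (0.218 and 0.374), and that between the knockdowns without shARNT replicate 1 or 3 (0.285 and 0.201) or shBMAL1 replicate 1 or 3 (0.124 and 0.423), which left GGT1. GGT1 and ANPEP made most of that sum, and the part of these lists in the SLC2A2 result was not tested.

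Proteins that are known to bind the SLC2A2 promoter, or enhancers of islet and liver, formed a list of 12 genes, of which 7 were tested. Under shARNT 3 were higher and none lower, under shBMAL1 4 were higher and 2 lower, and between the knockdowns 3 were higher and 2 lower, beside 35.4%, 36.8% and 35.3% called of all genes. The median log2 fold change of the list was 0.19, 0.67 and 0.06. FOXA2, a forkhead factor of endoderm, had 505 ± 39.3 normalised reads in shControl, 472 ± 48.0 in shARNT and 806 ± 76.2 with shBMAL1, and was higher in shBMAL1 than in shARNT (log2 0.77, SE 0.11, DESeq2 adjusted p 4.05e-10). FOXA1 was higher under shARNT (log2 1.08, DESeq2 adjusted p 0.00106) and under shBMAL1 (log2 0.81, DESeq2 adjusted p 0.0144), the last call being lost without shBMAL1 replicate 3 (log2 0.67, DESeq2 adjusted p 0.131). PPARG and SREBF1, which control lipid genes, were lower under shBMAL1 at −0.28 and −0.24, and SREBF1 was higher under shARNT at 0.27. PDX1 and NEUROD1 had no reads.

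SLC2A6 and SLC2A8 encode carriers that sit mainly on membranes inside the cell. SLC2A6 (GLUT6, chromosome 9, 136336216 to 136344249, minus strand, protein-coding) had 1632, 1610 and 1727 normalised read counts in shControl, 1912, 1922 and 2026 in shARNT, and 1128, 1065 and 1155 in shBMAL1. The groups did not overlap, with shARNT above and shBMAL1 below the control. On the log2 scale the changes were 0.24 (SE 0.07, DESeq2 adjusted p 0.00199) under shARNT and −0.57 (SE 0.08, DESeq2 adjusted p 3.38e-11) under shBMAL1. The difference between the knockdowns was −0.81 (SE 0.08, DESeq2 adjusted p 4.52e-23). SLC2A6 thus moved in opposite directions, the rise being 1.18-fold and the fall 1.49-fold.

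SLC2A8 (GLUT8, chromosome 9, 130159417 to 130170703, plus strand, protein-coding) had 818, 848 and 794 normalised read counts in shControl, 695, 683 and 691 in shARNT, and 833, 747 and 717 in shBMAL1. The shARNT libraries were the lowest, and the shBMAL1 libraries overlapped with the control. Only the fall under shARNT was called (log2 −0.25, SE 0.09, DESeq2 adjusted p 0.0193), and it was lost without shControl replicate 2 (log2 −0.22, DESeq2 adjusted p 0.109). The value under shBMAL1 was −0.10 with a 95% interval of −0.29 to 0.09. The difference between the knockdowns was 0.15 with an interval of −0.04 to 0.34 (DESeq2 adjusted p 0.274), so a difference in response was not shown.

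SLC2A10 and SLC2A12 are close relatives in the family. SLC2A12 (GLUT12, chromosome 6, 134308719 to 134373762, minus strand, protein-coding) had 310, 304 and 304 normalised read counts in shControl, 268, 252 and 202 in shARNT, and 683, 626 and 540 in shBMAL1. All shBMAL1 libraries were above the control and all shARNT libraries below it. The rise under shBMAL1 was 2.01-fold (log2 1.01, SE 0.12, DESeq2 adjusted p 1.55e-14), and shBMAL1 was 2.56-fold above shARNT (log2 1.35, SE 0.14, DESeq2 adjusted p 9.28e-21). The fall under shARNT was small (log2 −0.34, SE 0.14, DESeq2 adjusted p 0.0588). That call was lost without shARNT replicate 2 (adjusted p 0.105) or 3 (log2 −0.23, adjusted p 0.328), or without shControl replicate 1, 2 or 3 (adjusted p 0.167, 0.140 and 0.135, all by DESeq2). TBPL1, which overlaps SLC2A12 by 2852 bases on the opposite strand, had 330 ± 26.5 in shControl, 384 ± 22.5 in shARNT and 462 ± 61.8 with shBMAL1, and its part in the counts of SLC2A12 was not tested.

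SLC2A10 (GLUT10, whose loss causes arterial tortuosity, chromosome 20, 45338288 to 45364986, plus strand, protein-coding) had 2112, 2165 and 2274 normalised read counts in shControl, 1975, 2238 and 2068 in shARNT, and 1907, 1802 and 1859 in shBMAL1. The shBMAL1 libraries lay below all others, and shARNT overlapped with the control. The fall under shBMAL1 was 1.18-fold (log2 −0.24, SE 0.07, DESeq2 adjusted p 0.00583), and the value under shARNT was −0.06 with a 95% interval of −0.19 to 0.08. The value between the knockdowns (log2 −0.18, DESeq2 adjusted p 0.0723) was called, but not without shARNT replicate 2 or 3 (adjusted p 0.324 and 0.137) or without shBMAL1 replicate 2 or 3 (adjusted p 0.212 and 0.138).

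SLC2A9 and SLC2A13 carry other substrates, urate in the case of SLC2A9 and myo-inositol with a proton in the case of SLC2A13. SLC2A9 (chromosome 4, 9772777 to 10056560, minus strand, protein-coding) had 80.5, 92.0 and 108 normalised read counts in shControl, 52.6, 87.4 and 80.5 in shARNT, and 71.5, 62.5 and 44.1 in shBMAL1. Its shBMAL1 libraries were below the control, and the shARNT libraries overlapped with both. The fall under shBMAL1 (log2 −0.66, SE 0.27, DESeq2 adjusted p 0.0467) was lost without shBMAL1 replicate 3 (log2 −0.48, adjusted p 0.236), shControl replicate 2 (adjusted p 0.107) or shControl replicate 3 (log2 −0.54, adjusted p 0.236). Under shARNT the value was −0.34 with a 95% interval of −0.85 to 0.17, and between the knockdowns −0.31 with an interval of −0.89 to 0.27.

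SLC2A13 (chromosome 12, 40148827 to 40499891, minus strand, protein-coding), the member whose promoter window held the E-box, had 612, 593 and 600 normalised read counts in shControl, 582, 589 and 688 in shARNT, and 575, 645 and 580 in shBMAL1. The groups overlapped in all 3 comparisons. The log2 fold changes were 0.05 under shARNT (95% interval −0.15 to 0.25), −0.01 under shBMAL1 (−0.21 to 0.20) and −0.05 between the knockdowns (−0.26 to 0.17), and none was called (DESeq2 adjusted p 0.799, 0.976 and 0.811). It was the only member called in none of the comparisons.

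The levels of different members were compared per length, as normalised reads per kilobase of annotated exon. SLC2A1 exceeded every other member in all groups, at 11697 in shControl, 5366 in shARNT and 7460 with shBMAL1. In shControl it was followed by SLC2A6 (469) and SLC2A10 (451), whose libraries overlapped, then SLC2A3 (400), SLC2A8 (209), SLC2A13 (60.03), SLC2A12 (54.9), SLC2A9 (14.1), SLC2A14 (9.92) and SLC2A2 (2.26). In shARNT the order was SLC2A6 (553), SLC2A10 (433), SLC2A3 (281), SLC2A8 (175), SLC2A13 (61.8), SLC2A12 (43.2), SLC2A2 (19.7), SLC2A9 (11.1) and SLC2A14 (6.19), of which only the last pair overlapped. In shBMAL1 it was SLC2A10 (384), SLC2A6 (316), SLC2A8 (195), SLC2A3 (176), SLC2A2 (160), SLC2A12 (111), SLC2A13 (59.8), SLC2A9 (8.95) and SLC2A14 (3.26). There SLC2A3 overlapped with both SLC2A8 and SLC2A2, so the low-affinity carrier reached about the level per length of the high-affinity one. The order of the middle genes depends on the length used. Over the longest transcript SLC2A3 came directly after SLC2A1 in shControl (657, before SLC2A10 with 517 and SLC2A6 with 485), and in shBMAL1 SLC2A3 (289) stood above SLC2A2 (172).

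Summed over the 10 members, the level per kilobase was 13367 ± 592 in shControl, 6951 ± 295 in shARNT and 8873 ± 657 with shBMAL1 (SD, n = 3). The ratios were 0.520 for shARNT and 0.664 for shBMAL1 against shControl, and 1.28 for shBMAL1 against shARNT, with groups that did not overlap (exact two-sided permutation p 0.1 each, the smallest possible). SLC2A1 made 87.5% ± 0.685 of the sum in shControl, 77.2% ± 0.746 in shARNT and 84.0% ± 0.701 with shBMAL1, so the sum largely followed this gene. The other 9 members together had 1670 ± 16.3, 1585 ± 24.4 and 1413 ± 47.9 in the same order. Within those 9, SLC2A2 went from 0.136% ± 0.091 in shControl to 1.24% ± 0.219 in shARNT and 11.4% ± 1.10 in shBMAL1. SLC2A3 went from 23.9% ± 1.18 to 17.8% ± 1.74 and 12.4% ± 0.955, SLC2A6 from 28.1% ± 0.791 to 34.9% ± 1.34 and 22.4% ± 1.08, and SLC2A12 from 3.29% ± 0.047 to 2.73% ± 0.395 and 7.81% ± 0.721. SLC2A10 kept a share near 27.0%, with 27.3% and 27.2% in the knockdowns. These shares depend on the length used. Over the longest transcript SLC2A3 had 29.4%, 22.6% and 16.0% in the same order, and SLC2A6 had 21.7%, 28.0% and 18.1%. SLC2A2 had 9.50% in shBMAL1 by that length.

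**Figure D4:**
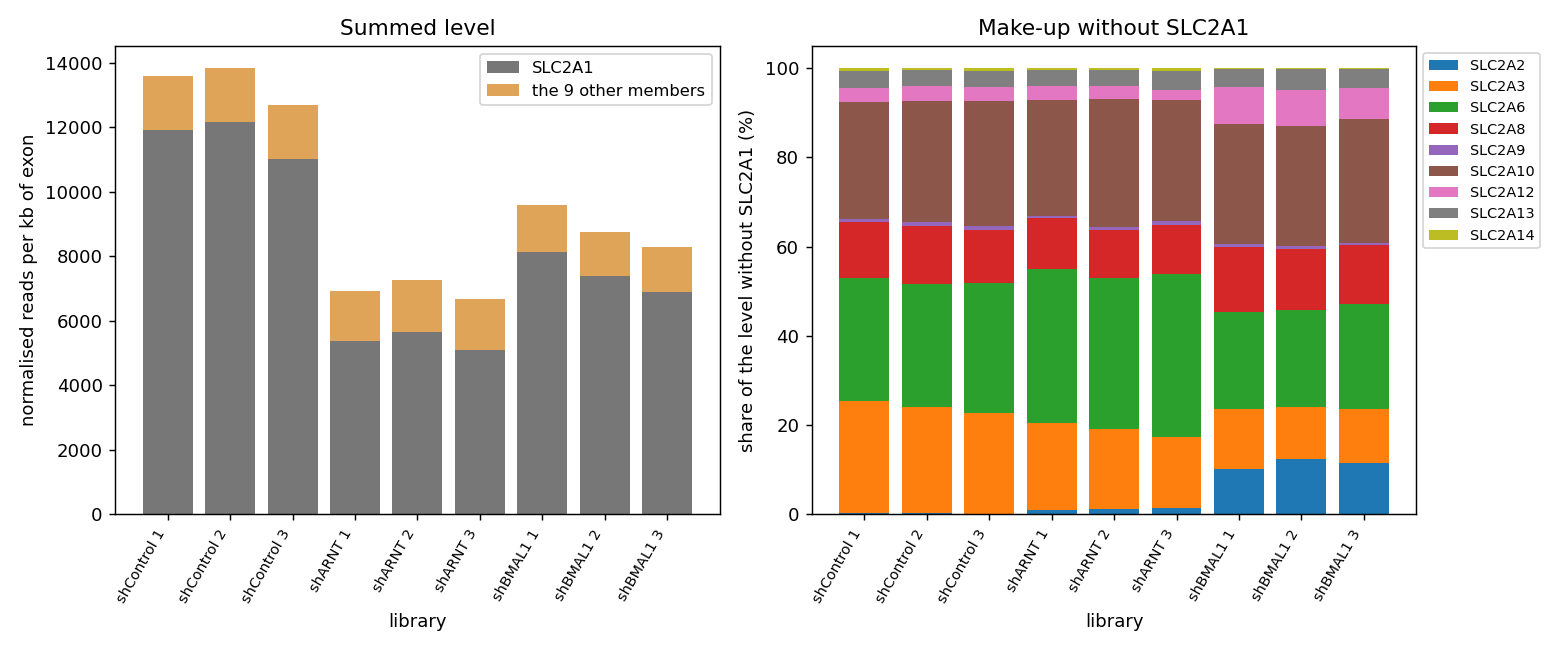
The left panel stacks the level of SLC2A1 and the sum of the other 9 members in normalised reads per kilobase of exon for each library, and the right panel gives the percentage of each of those 9 in their own sum. The left bars fall from a mean of 13367 in shControl to 6951 in shARNT and 8873 in shBMAL1, and in the right panel SLC2A2 widens to 11.4% in shBMAL1 while SLC2A3 narrows from 23.9% to 12.4%.

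The genes whose counts followed each carrier most closely were found by Pearson's r of log2(normalised read count + 1) over the 9 libraries, among 13340 genes with a mean of at least 50 in 1 group. The libraries form 3 groups, so these values describe shared differences between groups and carry no p. For SLC2A1 they were TRIB3, a stress-induced pseudokinase (r = 0.999), SEC23A of the COPII coat (0.993) and TGM2, a transglutaminase (0.991). TRIB3 had 8101 ± 215 normalised reads in shControl, 3995 ± 205 in shARNT and 5488 ± 426 with shBMAL1. For SLC2A2 they were CFI and CFHR3, which belong to the complement system (0.991 and 0.987), and HGD, which acts in tyrosine breakdown (0.988). CFI had 898 ± 133, 1656 ± 65.3 and 3649 ± 199 in the same order. For SLC2A3 they were the sialyltransferase ST3GAL1 (0.994), the phospholipase PLCB3 (0.993) and the protease CAPN1 (0.991).

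Other carriers of sugars formed a list of 16 genes. Under shARNT, 9 were tested, 4 lower and 3 higher. Under shBMAL1, 12 were tested, 3 lower and 4 higher, and between the knockdowns 2 of 12 were lower and 6 higher, the last 8 calls becoming 5 without shARNT replicate 1 or without shBMAL1 replicate 3. In those fits 5182 of 16514 and 5364 of 16475 genes tested were called, beside 6409 of 18181 with no library left out. Of all genes tested, 35.4%, 36.8% and 35.3% were called, and the median log2 fold change of the list was −0.41, 0.09 and 0.23. SLC2A5 (GLUT5), the fructose carrier, had 658, 608 and 625 normalised read counts in shControl, 181, 183 and 118 in shARNT, and 523, 482 and 444 in shBMAL1. It fell 3.91-fold under shARNT (log2 −1.97, SE 0.14, DESeq2 adjusted p 7.97e-40), was lower under shBMAL1 too (log2 −0.39), and was 3.00-fold higher in shBMAL1 than in shARNT (log2 1.59, SE 0.16, DESeq2 adjusted p 4.50e-21). SLC2A4 (GLUT4), the insulin-responsive carrier of muscle and fat, was weak, with 17.4 ± 3.97 in shControl, 13.1 ± 6.66 in shARNT and 60.5 ± 7.08 with shBMAL1, and was called higher under shBMAL1 (log2 1.79, SE 0.37, DESeq2 adjusted p 1.38e-05). SLC2A11 was higher in both knockdowns (log2 0.38 under shARNT and 0.49 under shBMAL1), and 10.5% of the 100-base windows of its transcript are shared with an overlapping gene, so its counts are uncertain. SLC2A7 had at most 3 reads in a library. Among the carriers outside the family, SLC45A1 was lower under shARNT (−0.85) and shBMAL1 (−0.44), and SLC45A3 was lower under shBMAL1 (−0.86). MFSD4B was higher under shARNT (0.40) and lower in the comparison of the knockdowns (−0.35). The rise of SLC45A4 under shARNT (0.39, DESeq2 adjusted p 0.0621) was lost without shARNT replicate 1 or 2 (0.207 and 0.191) or shControl replicate 1 or 3 (0.246 and 0.238). The fall of SLC45A3 between the knockdowns (−0.41, DESeq2 adjusted p 0.0413) was lost without shARNT replicate 1 or 2 (0.138 and 0.180) or shBMAL1 replicate 2 or 3 (0.145 and 0.244).

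Once inside the cell glucose is trapped by phosphorylation, and a list of 18 genes for this step, for sugar alcohols and for release from the endoplasmic reticulum had 14 tested members. Of these, 6 were lower and 3 higher under shARNT, 8 lower and 2 higher under shBMAL1, and 5 lower and 4 higher between the knockdowns, where 35.4%, 36.8% and 35.3% of all genes were called. The median log2 fold change of the list was −0.18, −0.49 and −0.13. HK2, the inducible hexokinase, had 1388 ± 95.6 normalised reads in shControl, 611 ± 71.9 in shARNT and 889 ± 41.0 with shBMAL1. It was lower under shARNT (log2 −1.18, SE 0.10, DESeq2 adjusted p 2.38e-32) and higher in shBMAL1 than in shARNT (log2 0.54, SE 0.11, DESeq2 adjusted p 4.80e-06). HK1 had 15148 ± 572 in shControl, 9147 ± 283 in shARNT and 9242 ± 667 with shBMAL1, a fall of 0.72 on the log2 scale under shARNT (DESeq2 adjusted p 8.48e-45). SLC37A2, a sugar phosphate exchanger, fell most under shBMAL1 (log2 −1.74, SE 0.08, DESeq2 adjusted p 2.60e-97) and SLC37A1 fell as well (−0.94), while SLC37A4, the glucose 6-phosphate carrier of the endoplasmic reticulum, rose (0.46). SLC37A2 had 2275 ± 29.0 in shControl, 1707 ± 75.2 in shARNT and 684 ± 38.5 with shBMAL1. KHK, which phosphorylates fructose, rose under shBMAL1 (log2 0.99, DESeq2 adjusted p 3.18e-05). AKR1B1, which makes sorbitol from glucose, was higher under shARNT (0.35) and lower in shBMAL1 than in shARNT (−0.82), and HKDC1, a relative of the hexokinases, was higher under shARNT (0.31). AKR1B1 had 63740 ± 977 in shControl, 80967 ± 4104 in shARNT and 45968 ± 2164 with shBMAL1. Every shBMAL1 library lay below every control library. G6PC and G6PC2 had no reads in any library.

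Proteins that place GLUT carriers in membranes or control their amount formed a list of 21 genes, of which 20 or 21 were tested. Under shARNT 4 were lower and 2 higher, under shBMAL1 7 were lower and 2 higher, and between the knockdowns 5 were lower and 3 higher, beside 35.4%, 36.8% and 35.3% of all genes called. The median log2 fold change of the list was −0.02, −0.05 and −0.06. TXNIP and ARRDC4 are arrestin-like proteins that promote the removal of GLUT1 from the cell surface and are induced by glucose through MLXIP and its partner MLX. TXNIP had 2015, 2234 and 1844 normalised read counts in shControl, 1474, 1296 and 1236 in shARNT, and 2867, 2795 and 2476 in shBMAL1. It was lower under shARNT (log2 −0.60, SE 0.09, DESeq2 adjusted p 7.97e-11) and higher under shBMAL1 (log2 0.42, SE 0.09, DESeq2 adjusted p 2.18e-05). ARRDC4 had 167, 144 and 167 in shControl, 78.9, 71.7 and 88.5 in shARNT, and 185, 183 and 185 in shBMAL1, and was 1.21 higher on the log2 scale in shBMAL1 than in shARNT (SE 0.20, DESeq2 adjusted p 1.43e-08). MLXIP was lower in both knockdowns (log2 −0.55 under shARNT and −0.73 under shBMAL1, DESeq2 adjusted p 8.60e-21 and 6.54e-27). STX4, a syntaxin of the plasma membrane, was lower under shBMAL1 (−0.52), and the sorting receptor SORT1 was higher (0.57). TBC1D4 and STXBP3, known from GLUT4 traffic, were higher under shARNT (0.32 and 0.29), and TBC1D4 was lower in shBMAL1 than in shARNT (−0.51).

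**Figure D5:**
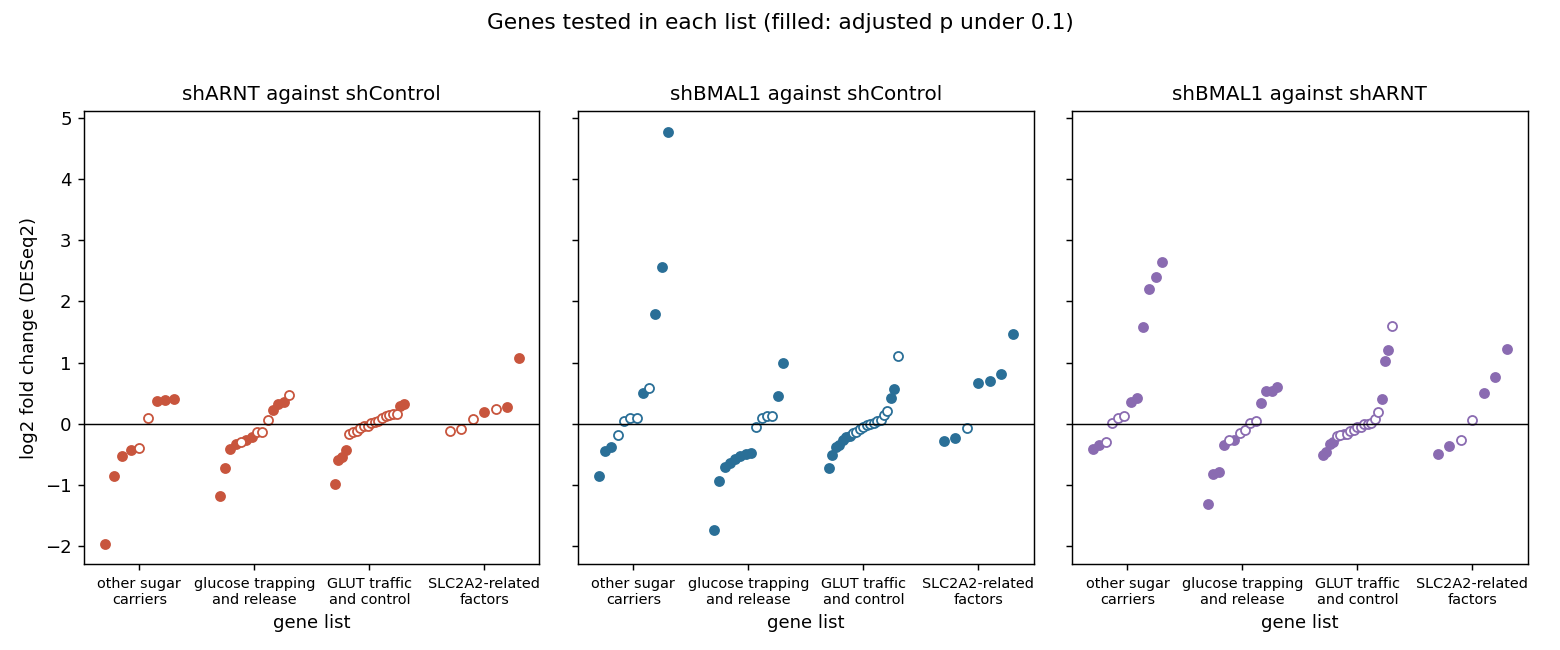
Log2 fold change (vertical axis) of every tested gene in 4 lists around the carriers, in 3 panels for the comparisons, with genes sorted within a list and filled where the DESeq2 adjusted p was under 0.1. Each list has filled points on both sides of 0, except the SLC2A2-related factors under shARNT, where the 3 filled points lie above 0.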

How the data were processed

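Polyadenylated RNA of 9 libraries of 786-O cells was analysed, with groups and replicate numbers from the labels. Nothing in the labels beyond the words for biological replicates says that libraries came from separate cultures, so p-values measure the spread between these libraries. The values deposited by the authors were estimated counts of reads for each gene, on a linear scale. The study's methods name alignment to GRCh37 with SeqMan NGen and counting in ArrayStar, whereas the submitters' processing notes list hg38, STAR and DESeq2, so the build behind the counts is uncertain. The strand setting is not given in the sources used here. The value 0.009 stood for 0 (46.3% of cells) and was set to 0. Fractions (6.14% of the remaining values, none in a member) were rounded, and rows of the same name were added, which left 38021 genes.

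Each comparison was fitted to all genes in DESeq2 version 1.42.0 (R 4.3.3) on its 6 libraries, with the Wald test, independent filtering and Benjamini-Hochberg adjustment, and called, as in the study, where that adjusted p was below 0.1. Adjusted p values are two-sided. Intervals of log2 fold changes are 95% normal intervals. The fits were tested on simulated data. Levels per length used the GENCODE annotation lifted to GRCh37 (union of exons), and exact permutation tests used scipy 1.17.1. Alternatives were quasi-likelihood tests in edgeR 4.0.16, TMM size factors, a filter (3 or more libraries with 10 or more counts), a stricter threshold of 0.05, a change of at least 1.5-fold, 1 fit of all 9 libraries, a replicate block, SLC2A3 and SLC2A14 added, another length, and leaving out each library. The 10 members are all named. From each of the 8 lists the text gives the calls in each direction and names up to 2 genes with the largest rise and 2 with the largest fall among called genes with a mean of at least 50 in 1 group, plus genes named for their role. Some listed genes are not reported here by name. The members and lists were chosen with earlier results of these data known.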

Additional observations from a re-analysis of the deposited data

How the results depend on the processing

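Of 90 values for the family as a whole under other settings, 87 kept their direction and moved by less than the spread between libraries (1 SD) or, for counts of calls, by at most 1.5 times. Some of these moves were large against a small value, as for the share of SLC2A14 below. Among them, the members called under shARNT went from 6 to 4 without shControl replicate 2. In that fit 4455 of 15377 genes tested were called, beside 5374 of 15164 with no library left out. The members called under shARNT went from 6 to 2 when a change of at least 1.5-fold was required. Calls over all genes were not counted with that minimum. Without 1 library at a time, the difference in the share of SLC2A14 in its pair ran from −0.542 to 0.0915 percentage points for shARNT against shControl and from −0.571 to 0.0620 between the knockdowns, and the log2 fold change of SLC2A13 ran from −0.035 to 0.088 under shARNT, from −0.059 to 0.023 under shBMAL1 and from −0.103 to 0.031 between the knockdowns. Of 390 values for single members, 353 kept their call and direction, 26 lost a call, 6 gained one and 5 changed sign, all 5 of SLC2A13. SLC2A14 gained its call under shARNT with the count filter (adjusted p 0.0923) and between the knockdowns with the count filter (0.0656) and in the fit of all 9 libraries (0.0506). The 1.5-fold minimum reduced the calls in the lists of sugar carriers from 7 to 2, from 7 to 4 and from 8 to 4 in the 3 comparisons, in the trapping list from 9 to 2, from 10 to 5 and from 9 to 4, in the traffic list from 6 to 2, from 9 to 1 and from 8 to 2, and among the SLC2A2-related factors from 3 to 1 and from 5 to 2 (shARNT and between the knockdowns).

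Libraries of the same number did not deviate together (r from −0.15 to 0.11), so the numbers were not taken as pairs. With a replicate block, 5, 7 and 5 members were called in place of 6, 8 and 6, since SLC2A12 under shARNT (adjusted p 0.150), SLC2A9 under shBMAL1 (0.142) and SLC2A10 between the knockdowns (0.144) were lost. Calls over all genes tested fell too, to 4150 of 15166, 5742 of 17185 and 5388 of 16788. Without the block they were 5374 of 15164, 7005 of 19036 and 6409 of 18181. Among listed genes named in the text, CUBN under shBMAL1 (0.212) and between the knockdowns (0.199), TF (0.106) and SLC45A4 (0.151) under shARNT were lost too. Precision is limited by depth for SLC2A2 in shControl and for SLC2A14, with 2 to 12 and 12 to 62 reads per library.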
